A study of Mus musculus with 40 samples.

Results

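The chromatin sites described here were open in wild-type (WT) Th2 cells and missing from the list of open sites of Setdb1-deficient Th2 cells. Open chromatin was mapped by ATAC-seq, in which a transposase inserts sequencing adapters into DNA that is free of nucleosomes. A site was taken from the deposited WT list when it lay on chromosomes 1 to 19 or X, had a score of at least 5 (the −log10 q of the authors' peak caller) and overlapped no listed Setdb1 KO peak by even 1 bp. Of 92071 WT peaks, 51750 reached this score, 41078 of these overlapped a KO peak and are called shared sites, and 10672 did not and are called WT-only sites. The rule therefore used the ATAC-seq scores and the absence from the KO list, and both are given below as a description with no test.

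The series held 40 mouse samples of spleen CD4+ T cells, 2 for ATAC-seq, 20 for histone marks and input DNA, and 18 for RNA. WT cells were labelled C57BL/6 Setdb1+/+ and KO cells C57BL/6 Setdb1-/-, with a further H3K9me3 list from Suv39h1-/- Th2 cells. Naive cells were taken at day 0, as 4 WT and 3 KO RNA libraries. Th2 cells were grown for 6 days, as 3 WT and 3 KO RNA libraries. For these, wells were coated with anti-CD3epsilon at 10 ug/mL, the medium held anti-CD28 at 1 ug/mL, IL-4 at 50 ng/mL and anti-IFNgamma, and IL-2 at 30 IU/mL replaced the anti-CD3 and anti-CD28 stimulus from day 3. Th2-Th1 cells were Th2 cells moved for 2 days to IL-12 at 10 ng/mL with anti-IL-4, as 2 WT and 3 KO RNA libraries. How the Setdb1 deletion was made, and in which cells, was not stated in any source used here. ATAC-seq gave 1 list per genotype, and each histone mark gave 1 list per group.

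SETDB1 and SUV39H1 are enzymes that place H3K9me3, a histone mark of silent chromatin. Open sites away from gene starts are often enhancers, where transcription factors such as AP-1, STAT6 and GATA3 bind in Th2 cells; H3K4me1 marks enhancers in general and H3K27ac the active ones. In Th2 cells these elements accompany the cytokine genes Il4, Il5 and Il13, which act in responses to helminths and in allergy.

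Sites at promoters are shown first, because there the sequence under the site is at hand. The RefSeq promoter table (GRCm38.p6, the assembly also named mm10) gives 250 bases before and 50 after each start. A WT-only site, and no shared site, fell in 181 of its windows, belonging to 164 genes. The AP-1 letters TGANTCA, searched on both strands, were in 32 of these windows, or 17.7%. That share was 4.89% in windows with a shared site, 9.47% in windows with no WT site and 7.85% in all 32619 windows. In 26 genes the letters lay inside the WT-only site itself. The next 5 sequences are the bases before the start of the 5 such genes with the highest site scores, leaving out genes with a Gm or Rik name, with the AP-1 letters in capitals.
Adgrg1: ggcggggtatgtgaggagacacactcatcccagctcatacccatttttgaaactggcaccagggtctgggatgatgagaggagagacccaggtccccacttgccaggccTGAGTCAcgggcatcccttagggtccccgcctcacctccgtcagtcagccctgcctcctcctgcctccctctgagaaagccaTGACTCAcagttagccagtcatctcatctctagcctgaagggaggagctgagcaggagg
Iqcf1: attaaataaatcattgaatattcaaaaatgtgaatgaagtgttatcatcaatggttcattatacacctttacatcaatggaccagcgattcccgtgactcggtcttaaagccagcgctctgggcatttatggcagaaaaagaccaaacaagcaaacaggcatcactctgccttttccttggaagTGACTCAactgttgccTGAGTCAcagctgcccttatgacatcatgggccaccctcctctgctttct
Ugt1a6a: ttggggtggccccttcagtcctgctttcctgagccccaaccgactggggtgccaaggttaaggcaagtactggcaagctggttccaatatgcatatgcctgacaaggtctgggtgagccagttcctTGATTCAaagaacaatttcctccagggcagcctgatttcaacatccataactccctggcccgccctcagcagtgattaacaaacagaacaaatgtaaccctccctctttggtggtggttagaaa
Plin5: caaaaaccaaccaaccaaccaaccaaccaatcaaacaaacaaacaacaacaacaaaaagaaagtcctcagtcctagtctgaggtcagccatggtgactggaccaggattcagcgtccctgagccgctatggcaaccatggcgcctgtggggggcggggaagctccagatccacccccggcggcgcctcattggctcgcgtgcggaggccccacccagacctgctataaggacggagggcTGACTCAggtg
Itgax: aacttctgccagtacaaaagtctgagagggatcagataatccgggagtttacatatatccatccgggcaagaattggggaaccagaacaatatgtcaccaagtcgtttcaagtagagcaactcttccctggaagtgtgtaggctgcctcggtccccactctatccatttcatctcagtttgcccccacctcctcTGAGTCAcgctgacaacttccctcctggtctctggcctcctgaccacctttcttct
All are written 5′ to 3′ on the strand of the gene, up to the base before the start. Adgrg1, an adhesion G protein-coupled receptor, is shown from chr8:94984149-94984398 on the plus strand, and its letters begin 141 and 59 bases before the start, in a site with a score of 16.7. Iqcf1 is shown from chr9:106499717-106499966 on the plus strand, with letters 66 and 50 bases before the start. Ugt1a6a, a glucuronosyltransferase of drug clearance, is shown from chr1:88134559-88134808 on the plus strand, with letters 124 bases before the start. The stretch of Plin5, a lipid droplet protein, comes from chr17:56117549-56117798 on the minus strand, and its letters begin 11 bases before the start. The stretch of Itgax, the CD11c integrin of dendritic cells, comes from chr7:128129300-128129549 on the plus strand, and its letters begin 56 bases before the start.

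Of the 26 genes behind these AP-1 promoters, 14 had a value in the RNA table under that name and 12 did not. Of the 14, 7 reached the level needed for a test of RNA, and of those 1 was lower and 2 were higher in Th2 KO. Over all tested genes with a position, 25.1% were lower and 30.03% higher. The RNA values are normalised reads, that is read counts per gene over a size factor per library. Adgrg1 stood at 4.03, 7.42 and 0 normalised reads in the 3 Th2 WT libraries and at 7.55, 6.72 and 15.5 in Th2 KO, a log2 difference of 1.56 with an SE of 0.96 and an adjusted p of 0.18. Plin5 and Iqcf1 were listed at 0 in every Th2 WT library. Pacsin2, a membrane-bending protein, had the highest level of the 7 tested genes, at 1089, 1069 and 1135 in Th2 WT and at 2858, 2828 and 3017 in Th2 KO. It rose by 1.40 on the log2 scale, with an SE of 0.09 and an adjusted p of 2.0e-10. The WT-only site lay at a start of Pacsin2, while another of its starts held a shared site. Cnksr1, a scaffold protein of Ras signalling, was the one that fell, from 44.4, 20.4 and 24.9 in Th2 WT to 0.40, 2.24 and 1.499 in Th2 KO (log2 difference −3.71, SE 0.95, adjusted p 0.0027). These genes were picked after their values were seen.

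Other letters at these promoters are given beside the base composition of the windows, with no test. The windows with a WT-only site held 53.9% G and C, against 61.8% in windows with a shared site, 49.3% in windows with no WT site and 53.9% in all windows. The GC box GGGCGG was in 30.9% of them, against 67.0% with a shared site and 35.9% of all. The E-box CACGTG was in 3.87%, against 10.8% and 7.20%. A STAT6-type pattern, TTC and GAA parted by 4 bases, was in 12.2%, against 5.25% with a shared site and 6.99% of all windows. The CTCF letters CACNAGGNG were in 7.18%, against 4.98% and 4.26%. The GATA letters AGATAA were in 9.94%, against 5.47% and 11.2%, and the IRF letters GAAANNGAA in 4.97%, against 6.61% and 8.53%. The RUNX letters TGTGGT were in 20.4%, against 12.2% and 16.6%, the ETS letters AGGAAG in 37.6%, against 32.9% and 35.2%, and the NFAT letters TGGAAA in 16.6%, against 15.7% and 21.6%. The STAT letters TTCNNNGAA were in 9.39%, against 6.47% and 8.34%, the TCF and LEF letters ATCAAAG in 2.76%, against 2.37% and 3.76%, and the hypoxia factor letters ACGTG, which lie within the E-box, in 20.4%, against 27.5% and 19.8%. A match is a description of letters, not of binding.

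A second set of promoters belongs to genes that were on in Th2 WT and nearly off in Th2 KO. They were chosen, after the values were seen, by the size of that difference among genes with a WT-only site and no shared site at the promoter. Genes named otherwise in the promoter table than in the RNA table were left out. Gm5483, named Cstdc4 in the promoter table, was such a gene and fell by 6.33 on the log2 scale, more than Ermn. Capitals here mark the bases that lie inside the WT-only site.
Tmem45a: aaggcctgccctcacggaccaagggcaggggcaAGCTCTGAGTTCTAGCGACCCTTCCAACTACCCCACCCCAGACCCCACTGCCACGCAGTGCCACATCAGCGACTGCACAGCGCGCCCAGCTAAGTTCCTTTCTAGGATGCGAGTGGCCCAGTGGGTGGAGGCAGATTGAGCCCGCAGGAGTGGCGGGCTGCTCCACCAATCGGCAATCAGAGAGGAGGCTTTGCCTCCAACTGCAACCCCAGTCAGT
Stfa2: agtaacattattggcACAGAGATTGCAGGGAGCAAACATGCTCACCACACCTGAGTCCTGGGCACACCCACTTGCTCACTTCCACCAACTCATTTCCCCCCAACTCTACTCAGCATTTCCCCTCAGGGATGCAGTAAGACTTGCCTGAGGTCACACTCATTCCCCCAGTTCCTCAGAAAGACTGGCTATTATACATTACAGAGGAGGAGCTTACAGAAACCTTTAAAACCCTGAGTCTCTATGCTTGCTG
Ascl2: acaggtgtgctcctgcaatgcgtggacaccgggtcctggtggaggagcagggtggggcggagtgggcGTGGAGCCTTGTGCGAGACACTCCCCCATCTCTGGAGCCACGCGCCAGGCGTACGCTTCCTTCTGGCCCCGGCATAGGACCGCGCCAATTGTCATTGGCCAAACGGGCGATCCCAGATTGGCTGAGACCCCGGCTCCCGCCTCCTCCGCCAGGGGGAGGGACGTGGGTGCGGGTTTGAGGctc
Ermn: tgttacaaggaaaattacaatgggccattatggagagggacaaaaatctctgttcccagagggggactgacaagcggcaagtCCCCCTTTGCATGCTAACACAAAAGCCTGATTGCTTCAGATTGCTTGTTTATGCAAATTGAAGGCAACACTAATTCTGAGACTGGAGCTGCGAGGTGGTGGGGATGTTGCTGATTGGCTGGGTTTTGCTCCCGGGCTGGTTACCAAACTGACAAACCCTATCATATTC
Tmem45a is shown from chr16:56886164-56886413, Stfa2 from chr16:36408364-36408613, Ascl2 from chr7:142969265-142969514 and Ermn from chr2:58052865-58053114, all on the minus strand. The site covered 217 of the 250 bases at Tmem45a, 235 at Stfa2, 180 at Ascl2 and 168 at Ermn. None of these 4 sites held the AP-1 letters before the start.

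Before the RNA results, some facts of the libraries bear on all of them. The Setdb1 gene itself stood at 694, 933 and 841 normalised reads in the Th2 WT libraries and at 8070, 9044 and 8342 in those labelled Setdb1 KO, so its RNA goes against the label, and directions below are those of "the libraries labelled Setdb1 KO", written Th2 KO for short. In naive cells Setdb1 was at 1214 to 1366 in WT and at 933 to 1103 in KO. Th2 KO libraries held 36260766 to 44718627 reads and Th2 WT libraries 10140907 to 13257516, and ribosomal protein genes took 2.22% to 2.35% of reads in Th2 KO and 6.29% to 7.09% in Th2 WT, so depth and genotype cannot be told apart. In naive WT, replicates 1 and 3 detected 21278 and 25556 genes at equal depth, against 15148 and 16232 in replicates 2 and 4, and comparisons with naive cells are given with and without them. The summed level of the 4 CD4 T cell markers was 13396 to 15519 in Th2 WT and 11069 to 11643 in Th2 KO. Cd4 and Cd5 were lower in Th2 KO, but Cd3e (490 to 644 against 1032 to 1139) and Trac (1355 to 1403 against 2084 to 2488) were higher. The 4 CD8 and cytotoxic markers summed to 14446 to 15884 and 5270 to 12061. Gzmb made up nearly all of this sum. Cd8b1 was also lower in Th2 KO, Prf1 overlapped, and Cd8a was at 0 in Th2 WT and at 12.5 to 41.3 in Th2 KO. The 4 myeloid markers summed to 109.8 to 149.2 and 61.6 to 80.9, most of it from Cd68. The 3 erythroid markers summed to 17.5 to 22.2 and 379.7 to 414.8, nearly all from Hba-a1, with Hbb-bs at 0 in both. The part of these differences in the results below was not tested. Genes were tested with limma on log2(value + 1) over all 18 libraries when 2 libraries reached a value of 10, and a gene is called lower or higher at an adjusted p under 0.05; 16156 tested genes had a position, of which 25.1% were lower and 30.03% higher in Th2 KO. The p-values rest on 1 estimate of spread per gene over all 18 libraries, naive cells included, and not on the Th2 libraries alone. Each Th2 group had 3 libraries, and no label says they came from separate mice.

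Tmem45a, Stfa2, Ascl2 and Ermn, the second set of promoters printed above, were chosen for high RNA in Th2 WT and little in Th2 KO, so their values are a description. Tmem45a, a transmembrane protein gene, stood at 333, 377 and 504 normalised reads in Th2 WT and at 0, 0 and 2.50 in Th2 KO. The groups did not overlap, and the log2 difference was −8.04, with an SE of 0.76 and an adjusted p of 3.4e-08. Its promoter site, chr16:56885901-56886380, scored 10.7 and overlapped none of the H3K27ac and H3K4me1 peaks. Stfa2, a stefin that inhibits cysteine proteases, was at 280, 200 and 372 in Th2 WT and at 1.19, 0.45 and 3.997 in Th2 KO, a log2 difference of −6.78 with an SE of 0.58 and an adjusted p of 8.9e-09. Stefin genes lie in a family of near copies, so reads may be split among them and the Stfa2 value is uncertain. Ascl2, a transcription factor gene, was at 72.6, 74.2 and 130 in Th2 WT and at 0 in all 3 Th2 KO libraries, which makes it at least 68.6-fold lower when 3 reads are put in each of those libraries. Its adjusted p was 2.1e-07.

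Ermn, which encodes the actin-binding protein ermin, had the highest-scoring of these promoter sites. The site at chr2:58052681-58053032 scored 18.6, and it overlapped H3K27ac in WT and not in KO, and H3K4me1 in Th2 WT and not in naive WT. Ermn stood at 2123, 2494 and 2205 normalised reads in Th2 WT and at 108, 111 and 42.0 in Th2 KO. Th2 KO fell by 4.81 on the log2 scale, with an SE of 0.71 and an adjusted p of 1.1e-05. In Th2-Th1 cells Ermn stayed apart between the genotypes, at 4447 and 3834 in WT and at 199, 314 and 464 in KO. Stfa2 did so too, at 893 and 1211 in WT and at 0.49, 1.00 and 0 in KO. Tmem45a was by then low in both genotypes, at 9.45 and 16.3 in WT and at 0.98, 0 and 1.97 in KO.

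An open promoter in Th2 WT did not always go with more RNA there. L1cam, a neural cell adhesion gene, had 1 WT site, a WT-only site at chrX:73880690-73880962 over its start with a score of 5.88. It stood at 40.3, 11.1 and 34.9 normalised reads in Th2 WT and at 191, 214 and 247 in Th2 KO. The log2 difference was 3.05, with an SE of 0.32 and an adjusted p of 1.5e-07, and naive WT was higher still, at 405 to 532. Over all 67 tested genes whose promoter held a WT-only site and no shared site, 20 (29.9%) were lower and 15 (22.4%) higher in Th2 KO. Among 8856 genes with a shared site at the promoter, 25.9% were lower and 35.6% higher. The shares over all tested genes with a position were 25.1% and 30.03%. The 2 classes also differed in level, with a median of 39.7 normalised reads in the 67 genes and 590 in the 8856.

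**Figure D1:**
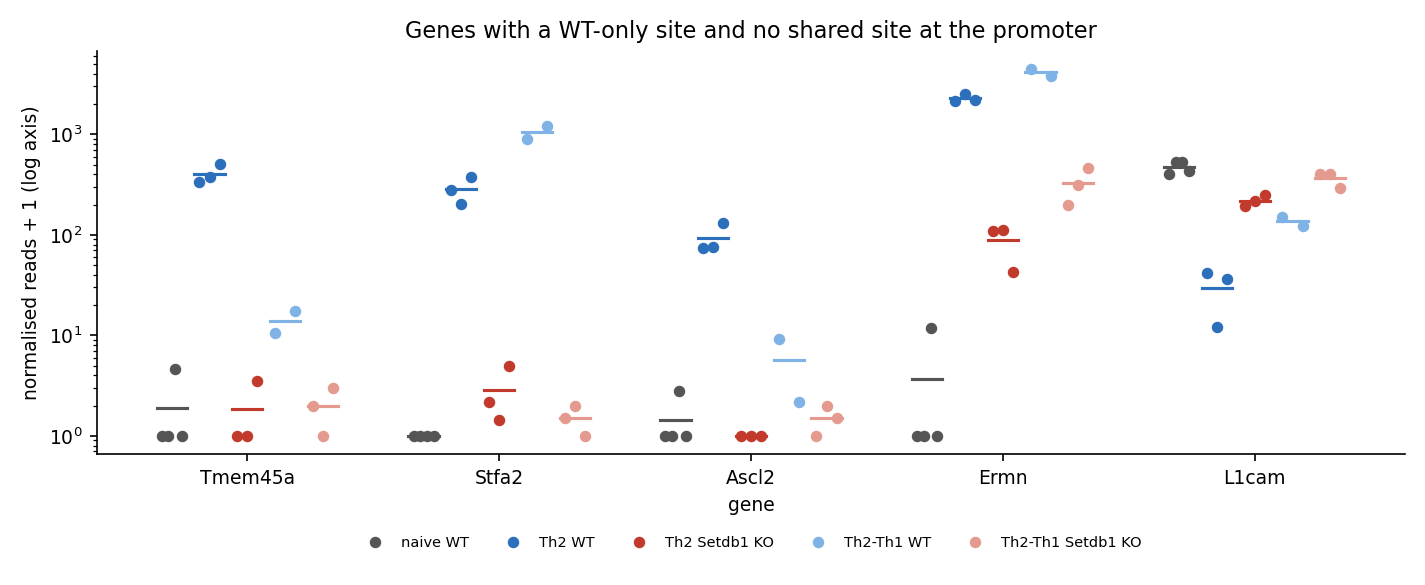
Normalised reads plus 1 (log axis) of 5 genes whose promoter held a WT-only site and no shared site. Points are libraries and bars are means of naive WT (4), Th2 WT (3), Th2 KO (3), Th2-Th1 WT (2) and Th2-Th1 KO (3). Tmem45a, Stfa2, Ascl2 and Ermn were high in Th2 WT and low in Th2 KO, and L1cam was low in Th2 WT, at 11.1 to 40.3.

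As a group, WT-only sites were weak and narrow. Their median score was 6.72, with quartiles at 5.71 and 8.52 and a maximum of 29.3, against a median of 10.9 in shared sites. Their median width was 195.5 bp, from 76 to 1398, against 448 bp, and their median fold over background as the authors' caller gave it was 4.78 against 5.31. Only 462 of them (4.33%) lay within 1 kb of a gene start, against 24.8% of shared sites. They were farther apart, with a median of 30808 bp to the next of their class against 8356 bp. A gene body held 5890 of them (55.2%, against 65.6% of shared sites), and 1171 (11.0%) had no gene within 50 kb, against 6.72%.

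The share of WT sites with no KO peak was smaller at higher scores. It was 44.1% of sites scoring 5 to 7 (5884 of 13350), 23.8% at 7 to 10, 9.89% at 10 to 15 and 1.96% at 15 and over (218 of 11128). The 5 WT-only sites just inside the minimum scored 5.00065 to 5.00158, and the 5 just outside scored 4.99879 to 4.99954. By chromosome the share ran from 18.3% on chromosome 7 to 23.6% on chromosome 13. The KO list was shorter, with 58480 peaks, of which 25287 (43.2%) scored at least 5 against 56.2% in WT, and in the other direction 330 KO sites of that score overlapped no WT peak. The read depth behind either list is unknown, so a closed site and a site too weak to be listed cannot be told apart. With the WT list shortened to 25287 sites, an alternative chosen after seeing the data, 1630 WT-only sites remained.

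**Figure D2:**
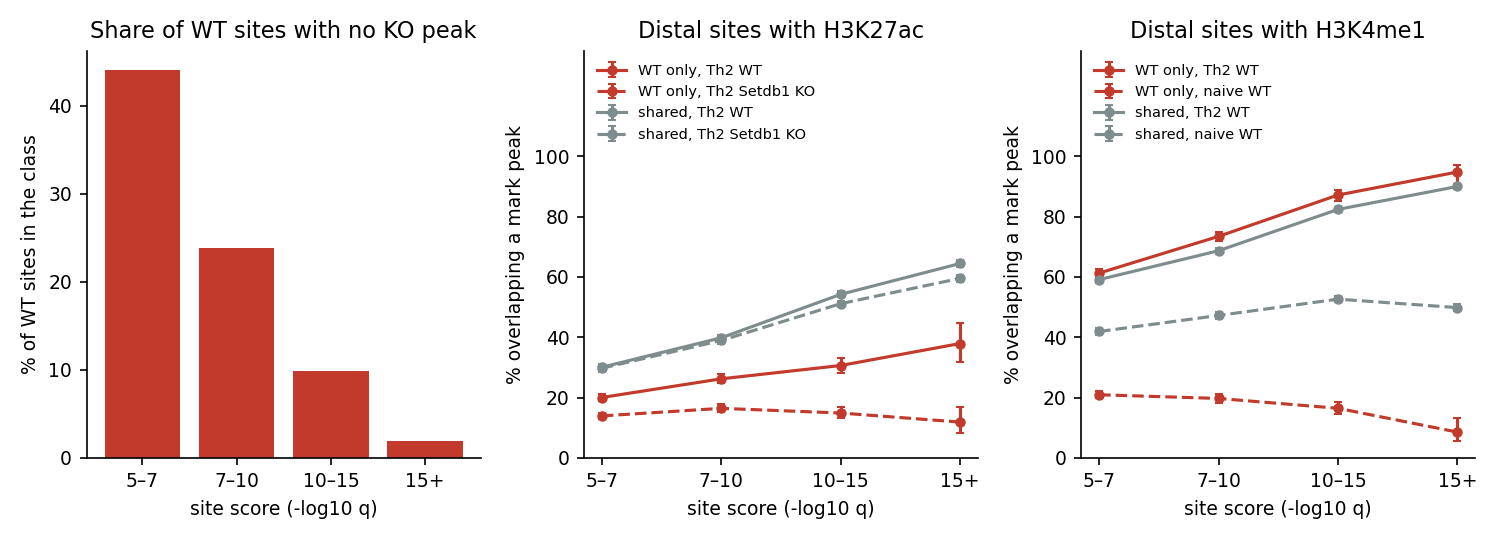
Left, share of WT sites of each score class with no KO peak (bars). Middle and right, share of sites over 1 kb from a start that overlapped an H3K27ac or H3K4me1 peak, by score, with 95% Wilson intervals. WT-only sites with H3K27ac ran from 20.01% to 37.9% in WT and from 13.9% to 11.8% in KO, while the lines of shared sites for WT and KO lay close together.

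The strongest WT-only sites lay between genes or inside large ones, and the genes named for them are named by position only. The highest, at chr1:105395890-105396308 (419 bp), scored 29.3 and lay 34153 bp from Gm17634. The next lay at chr1:184451771-184452084 and chr10:98562015-98562346, both scored 27.9, and neither had a gene within 50 kb. Of the top 10, 3 lay inside genes, at Wwox (chr8:115136771-115137207, 24.2), Thada (chr17:84347400-84347769, 23.8) and Minos1 (chr4:139115366-139115737, 22.9). Another, at chr7:101053029-101053342 with a score of 22.1, lay 40976 bp from P2ry2, a nucleotide receptor gene. All 10 overlapped H3K4me1 in Th2 WT and none did in naive WT, and 6 overlapped H3K27ac in Th2 WT against 1, that in Wwox, in KO.

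Histone marks were not used by the rule, and H3K27ac and the H3K4me1 of naive cells were each less common at WT-only than at shared sites. H3K4me1 covered 69.2% of WT-only sites in Th2 WT, close to the 73.1% of shared sites, but in naive WT it covered 20.8% against 57.7%. Away from gene starts the naive WT shares were 19.7% and 48.3%. Among sites more than 1 kb from a start, 5195 of 10210 WT-only sites (50.9%) had H3K4me1 in Th2 and not in naive cells, against 32.0% of shared sites. The contrast widened with score. At a score of 15 and over, 94.8% of distal WT-only sites had H3K4me1 in Th2 WT and 8.53% in naive WT, against 90.0% and 49.8% of shared sites. These are shares of sites between 1 list a group, and with no replicate list no test was possible.

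H3K27ac was less common at WT-only sites, and fewer of them kept it in KO. In Th2 WT it covered 24.3% of them (95% Wilson interval 23.5 to 25.1, counting error only), and in KO 15.4%. The shares were 57.5% and 55.3% of shared sites and 8.79% and 32.1% of KO-only sites. The gap in Th2 WT was narrower among distal sites, at 23.6% of WT-only against 48.0% of shared sites. Among distal sites scoring 5 to 7 it was 20.01% against 30.0%. The KO H3K27ac list was the longer one, with 40670 peaks against 31218. Of distal WT-only sites with H3K27ac in WT, 53.0% (1278 of 2413) also had it in KO, against 83.4% of shared sites. That share went down with score, from 58.7% at 5 to 7 over 52.3% and 43.9% to 26.3% at 15 and over, while in shared sites it stayed between 80.7% and 84.1%. Neither genotype had H3K27ac at 74.1% of distal WT-only sites, against 46.4% of shared ones.

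H3K4me1 was kept more often than H3K27ac. In the second H3K4me1 experiment, which held both genotypes, it covered 66.9% of WT-only sites in WT and 56.1% in KO, against 64.4% and 65.2% of shared sites. Of distal WT-only sites marked in WT, 77.4% were also marked in KO, against 89.8% of shared sites. It was listed in both genotypes at 51.9% of distal WT-only sites. H3K27ac in WT and not in KO covered 11.1% of distal WT-only sites (1135) and 7.98% of distal shared sites.

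H3K9me3, the mark placed by SETDB1, covered under 1% of WT-only sites in each WT and Setdb1 KO list. It covered 0.99% of them in Th2 WT, 0.34% in naive WT, 0.056% in Th2 KO, whose list held 1700 peaks against 12222 in Th2 WT, and 0.028% in naive KO, whose list held 1159. Shared sites had 1.49%, 0.73%, 0.24% and 0.28%. The long Suv39h1-/- list, with 43379 peaks, covered 6.63% of WT-only and 9.35% of shared sites. The 330 KO-only sites differed, with 18.8% in H3K9me3 of Th2 WT and none in that of Th2 KO.

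Some WT-only sites lay near each other, though less often than shared sites, which were more numerous. Within 10 kb of another of their class lay 24.6% of WT-only and 55.9% of shared sites. Picked from the fullest down, 259 windows of at most 100 kb held 5 or more WT-only sites. Such windows were not counted for shared sites. The fullest, at Ptpn1 and Fam65c, held 11 among 19 WT sites, and the next, at Adamtsl3, 10 among 18. At Srgap2 and Fam72a 9 of 11 WT sites were WT-only, at Cmss1 and Filip1l 9 of 12, at Nab1 8 of 11 and at Cysltr2, a leukotriene receptor gene, 8 of 11. At Hfm1 7 of 8 were WT-only.

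For RNA, each site was given to every gene whose body it overlapped, or else to the nearest gene within 50 kb. WT-only sites went to 5956 genes, of which 4622 were tested. Of these, 1231 (26.6%) were lower and 1451 (31.4%) higher in Th2 KO, beside a background of 25.1% and 30.03%. Both shares lay close to those over all genes. Genes with shared sites only were lower in 24.3% and higher in 33.1%, and genes with no WT site were lower in 25.3% and higher in 16.7%.

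The share of lower genes rose with the number of WT-only sites up to 9. It was 24.5% with none, 25.4% with 1, 27.2% with 2, 27.5% with 3, 31.6% with 4 or 5 and 42.2% with 6 to 9 (43 of 102 genes). In the last class 24.5% were higher and the median log2 difference was −0.31. Across the alternatives of the RNA fit 36.3% to 47.1% of this class were lower. Only 10 genes held 10 or more WT-only sites, and 1 of them was lower and 4 were higher. No test was made of this order, and the classes differ in other ways, since genes with 6 to 9 WT-only sites had a median length of 265204 bp and 17.5 WT sites, against 31510.5 bp and 3 for genes with 1.

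Length and level were looked at one at a time. Tested genes were cut into 5 equal classes by body length, and in the shortest class 41.7% of those with a WT-only site were lower against 37.4% without. In the next classes, in order of length, the shares were 30.7% against 24.2%, 30.2% against 21.7%, 27.2% against 17.8% and 20.9% against 13.1%. Genes with a WT-only site were thus lower more often in all 5. They were higher less often in all but the longest class, where 36.4% were higher against 31.1%. Level differed within these classes, most in the longest, with medians of 577 normalised reads with a WT-only site and 55.1 without. In 5 such classes of mean level the shares were closer, at 10.9% against 10.2% in the lowest class and then 22.9% against 20.9%, 26.4% against 25.6%, 29.8% against 31.3% and 35.6% against 37.8%. Among genes with 5 or more WT sites, 23.8% were lower where none was WT-only, 25.3% where up to 20% were, 28.9% at 20% to 40% and 30.7% above 40%.

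H3K27ac at the site in WT went with a larger share of lower genes. Genes with a distal WT-only site that had H3K27ac in WT and not in KO were lower in 35.0% (248 of 709) and higher in 27.4%. Over all tested genes with a position, 25.1% were lower and 30.03% higher. With H3K27ac in both genotypes 33.8% were lower, in KO alone 26.1%, and in neither 25.4%. The last 2 shares lay close to the 25.1% over all genes. The matching shares for distal shared sites were 29.9%, 27.2%, 20.7% and 23.7%. A gene can hold sites of several kinds and then counts in each, and no test was made between these shares.

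**Figure D3:**
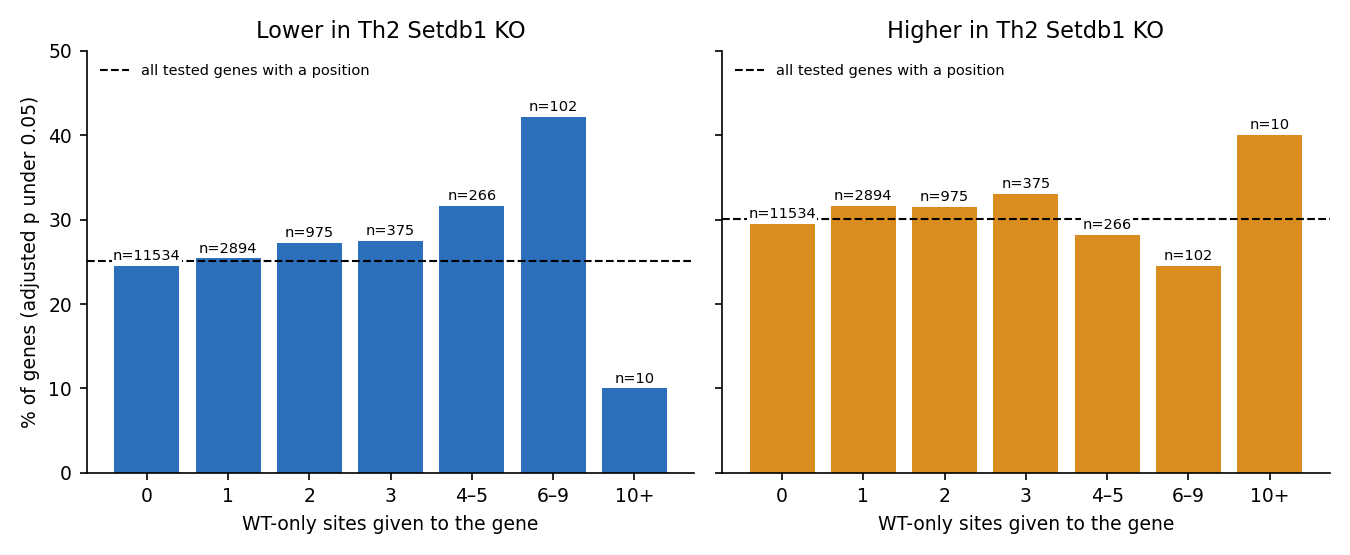
Share of tested genes lower (left) or higher (right) in Th2 KO at an adjusted p under 0.05, by number of WT-only sites given to the gene, with the number of genes above each bar. The dashed line is the share over all tested genes with a position, 25.1% and 30.03%. The share lower reached 42.2% at 6 to 9 sites and was 10.0% in the 10 genes with more.

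The same genes were looked at for change between naive and Th2 cells. Of all tested genes with a position, 33.8% were higher in Th2 WT than in naive WT, and 33.8% also without naive replicates 1 and 3. Genes with a WT-only site were higher in 37.7%, or 38.5% without those replicates. With 6 to 9 WT-only sites the share was 50.0%, or 48.0% without those replicates, and with 4 or 5 it was 48.9%, or 51.1%. Of the 67 genes with a WT-only site at the promoter, 52.2% were higher, against 36.4% of genes with a shared site there, and without those replicates the shares were 49.3% and 35.3%. In Th2-Th1 cells, 17.3% of genes with a WT-only site were lower and 21.0% higher in KO, against 16.7% and 17.97% of all.

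Named genes with many or mostly WT-only sites moved in both directions. Nbeal1, a BEACH domain gene, had 6 WT-only sites among 7 WT sites, the strongest at chr1:60173163-60173634 with a score of 17.04 and H3K27ac in WT and not in KO. It was at 1881, 1685 and 2061 normalised reads in Th2 WT and at 809, 786 and 787 in Th2 KO, and fell by 1.23 on the log2 scale (SE 0.15, adjusted p 6.9e-07). Its neighbour Bmpr2, the type II receptor of bone morphogenetic proteins, also had 6 of 7 sites WT-only, none of them with H3K27ac in either genotype. Bmpr2 was at 256, 152 and 264 in Th2 WT and at 193, 261 and 178 in Th2 KO, so the groups overlapped (log2 difference −0.07, SE 0.33, adjusted p 0.90).

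Acsl6, which activates long-chain fatty acids, had 5 of 6 sites WT-only and was at 98.8, 46.4 and 107 in Th2 WT against 4.37, 2.69 and 6.99 in Th2 KO (log2 difference −3.89, SE 1.16, adjusted p 0.0079). Gpr141, an orphan receptor gene, had 4 of 5, including sites with scores of 15.4 and 15.6 that had H3K27ac in WT and not in KO. Gpr141 was at 427, 332 and 337 in Th2 WT and at 87.0, 47.9 and 16.0 in Th2 KO (log2 difference −3.12, SE 0.69, adjusted p 0.00075). In both genes all Th2 WT libraries lay above all Th2 KO libraries.

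Inpp4b, a phosphatase of phosphoinositide signalling, held the most WT-only sites, 23 of 53. All 3 Th2 KO libraries were the higher ones, at 20566, 19791 and 19405 normalised reads against 5789, 4886 and 5231 in Th2 WT (log2 difference 1.91, SE 0.09, adjusted p 3.1e-12). Sox5, a transcription factor gene with 16 of 32 sites WT-only, was at 78.6, 48.2 and 87.3 in Th2 WT and at 9.54, 12.98 and 23.5 in Th2 KO. Its log2 difference of −2.20 (SE 0.96, adjusted p 0.061) missed the threshold over all 18 libraries, and in a fit of the 6 Th2 libraries the adjusted p was 0.0089. Rad51b, a gene of homologous recombination with 14 of 24, gave a log2 difference of 0.32 (adjusted p 0.71), and Prkch, a protein kinase C gene with 13 of 35, one of 0.50 (adjusted p 0.00017).

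Adamtsl3, a gene of the extracellular matrix, was at 0 to 30.8 in naive WT and had 12 of 24 sites WT-only, 12 of 12 with H3K4me1 in Th2 WT and none in naive WT. It stood at 8390, 7324 and 8614 normalised reads in Th2 WT and at 6382, 6931 and 5553 in Th2 KO (log2 difference −0.37, SE 0.84, adjusted p 0.75), and in the 6 Th2 libraries alone the adjusted p was 0.032. Bach2, a repressor gene of naive and memory T cells with 9 of 36, was at 464, 391.5 and 534 against 148, 176 and 273 (log2 difference −1.25, SE 0.27, adjusted p 0.00064), and its WT-only sites had H3K27ac 9 times in WT and 8 times in KO.

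The largest falls among genes with at least 3 WT-only sites came from genes of many kinds. Cdh17, a cadherin, had 3 WT-only sites of 6 and was at 1424, 1627 and 1681 in Th2 WT and at 21.9, 34.0 and 4.996 in Th2 KO (log2 difference −6.54, SE 1.11, adjusted p 5.0e-05). Emilin2, a matrix glycoprotein with 3 of 7, went from 7733, 7747 and 9417 to 238, 210 and 116 (log2 difference −5.51, SE 0.79). Smox, spermine oxidase, with 4 of 9, went from 5117, 4570 and 5546 to 146, 190 and 185 (log2 difference −4.87, SE 0.18). A lack of overlap between the Th2 groups was part of the rule that picked these genes, so their separation is a description.

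Others in that set were Slc2a3, the glucose transporter GLUT3, with 3 of 11 sites and a log2 difference of −5.75, Bank1, a scaffold of B cell signalling, with 7 of 10 and −4.86, and Pth, parathyroid hormone, with 3 of 6 and −4.46. Pik3ap1, an adaptor of phosphoinositide 3-kinase, had 4 of 10 and −4.35. Bank1 stood at 103, 141 and 122 in Th2 WT and at 4.77, 2.69 and 2.50 in Th2 KO. The rises were led by Acoxl, an acyl-CoA oxidase-like gene with 6 of 13 sites WT-only, listed at 0 in all Th2 WT libraries and at 122, 118 and 176 in Th2 KO, which is at least 21.8-fold higher when 3 reads are put in each Th2 WT library. Cpeb1, which binds mRNA tails, had 4 of 6 and rose by 5.49 on the log2 scale, Mcoln2, an endosomal channel, 3 of 9 and 4.44, and Thrb, a thyroid hormone receptor, 3 of 12 and 4.05. All of these had an adjusted p under 0.05 and no overlap between the Th2 groups by the rule that named them.

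Among genes of the Th2 programme, more were lower than higher in Th2 KO, both with and without a WT-only site, but 5 of the 12 with one passed in neither direction. In a list of 25 measured genes of the Th2 programme, 12 held at least 1, with 20 sites in all, and 5 of those 12 were lower and 2 higher in Th2 KO. Of the 13 without, 9 were lower and 1 higher. The shares lower were 41.7% with a site and 69.2% without, beside 25.1% lower and 30.03% higher over all tested genes. Gata3, the factor that directs Th2 identity, had 1 of 6, at chr2:9816159-9816338, and was at 2200, 2004 and 2303 in Th2 WT and at 1883, 2467 and 2371 in Th2 KO (log2 difference 0.04, SE 0.20, adjusted p 0.90). By the assignment of sites to genes, Il4 had 0 of 1, Il5 0 of 4 and Maf, a factor that drives Il4, 0 of 5. Their log2 differences were −1.66, −1.66 and −2.31. The locus of Il4 was not free of WT-only sites, since a window over Kif3a, Il4, Il13 and Rad50 held 5 among 9 WT sites.

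Il13 had 1 of 2, at chr11:53627959-53628134 with a score of 13.8, with H3K27ac in both genotypes and H3K4me1 in Th2 but not naive WT. It was at 2256, 2987 and 2437 in Th2 WT and at 1166, 1115 and 366 in Th2 KO (log2 difference −1.70, SE 0.37, adjusted p 0.00072). Il10, which restrains inflammation, had 1 of 11 and was at 9563, 9218 and 7496 against 3183, 3472 and 2085 (log2 difference −1.61, SE 0.51, adjusted p 0.012). Without Th2 KO replicate 3 the adjusted p was 0.054 for Il10 and 0.059 for Il5. Pparg, a nuclear receptor used by Th2 cells, had 3 of 9, all with H3K27ac in both genotypes, and fell by 2.71 on the log2 scale (adjusted p 0.0026), and Ccr3, the eotaxin receptor, with 1 of 7, fell by 2.87 (adjusted p 0.0035). Il6, a cytokine gene with 2 of 6, rose by 3.66 (adjusted p 6.5e-05).

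Of 32 measured cytokine and chemokine receptors, 21 had a WT-only site, with 39 sites in all. Of the 21, 10 (47.6%) were lower and 3 (14.3%) higher, against 2 lower and 3 higher of the 11 without. Among all tested genes 25.1% were lower and 30.03% higher. S1pr1, the receptor by which T cells leave lymphoid tissue, had 4 WT-only sites of 18. The strongest, at chr3:115742816-115743104, lay 27761 bp from the gene with a score of 21.2, and it overlapped H3K27ac in WT and not in KO and H3K4me1 in Th2 and not naive WT. S1pr1 was at 5154, 4862 and 5271 in Th2 WT and at 562, 492 and 568.04 in Th2 KO, with no overlap (log2 difference −3.24, SE 0.12, adjusted p 2.0e-13). Naive WT, at 9977 to 12488, was higher than both.

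Cxcr4, the CXCL12 receptor, had 4 WT-only sites of 10, all outside the gene, with scores from 6.89 to 13.8 and none with H3K27ac in either genotype. It stood at 8170, 6816 and 7863 in Th2 WT and at 431, 416 and 369 in Th2 KO (log2 difference −4.23, SE 0.39, adjusted p 2.5e-08). In Th2-Th1 cells the genotypes overlapped, at 387 and 357 in WT and at 474, 317 and 312 in KO. Il1r2, a decoy receptor for IL-1, had 1 of 4 and went from 8541, 8074 and 9253 to 236, 367 and 158 (log2 difference −5.16, SE 0.62, adjusted p 8.1e-07).

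Among costimulatory and inhibitory receptors, more were lower than higher in Th2 KO, with and without WT-only sites. Of 24 measured, 13 had one, 20 sites in all, with 9 lower (69.2%) and 3 higher (23.1%), against 7 lower and 2 higher of the 11 without. The shares over all tested genes were 25.1% and 30.03%. Ctla4, an inhibitory receptor, had 3 of 6, the strongest at chr1:60930389-60930974 with a score of 16.5, and all 3 had H3K27ac in both genotypes. It was at 25434, 21367 and 24228 in Th2 WT and at 3634, 4306 and 3611 in Th2 KO (log2 difference −2.62, SE 0.20, adjusted p 2.1e-09). Sh2d1a, the SAP adaptor of SLAM receptors, had 3 of 5, with H3K27ac at 2 in WT and at none in KO, and was at 3791, 3533 and 3438 against 524, 575 and 450 (log2 difference −2.80, SE 0.14). Tigit, another inhibitory receptor, had 1 of 10 and fell by 2.25 (adjusted p 0.017). Cd69, an early activation antigen that holds S1PR1 inside the cell, had 1 of 6, with a score of 14.0, and rose by 1.88 (adjusted p 3.5e-07).

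**Figure D4:**
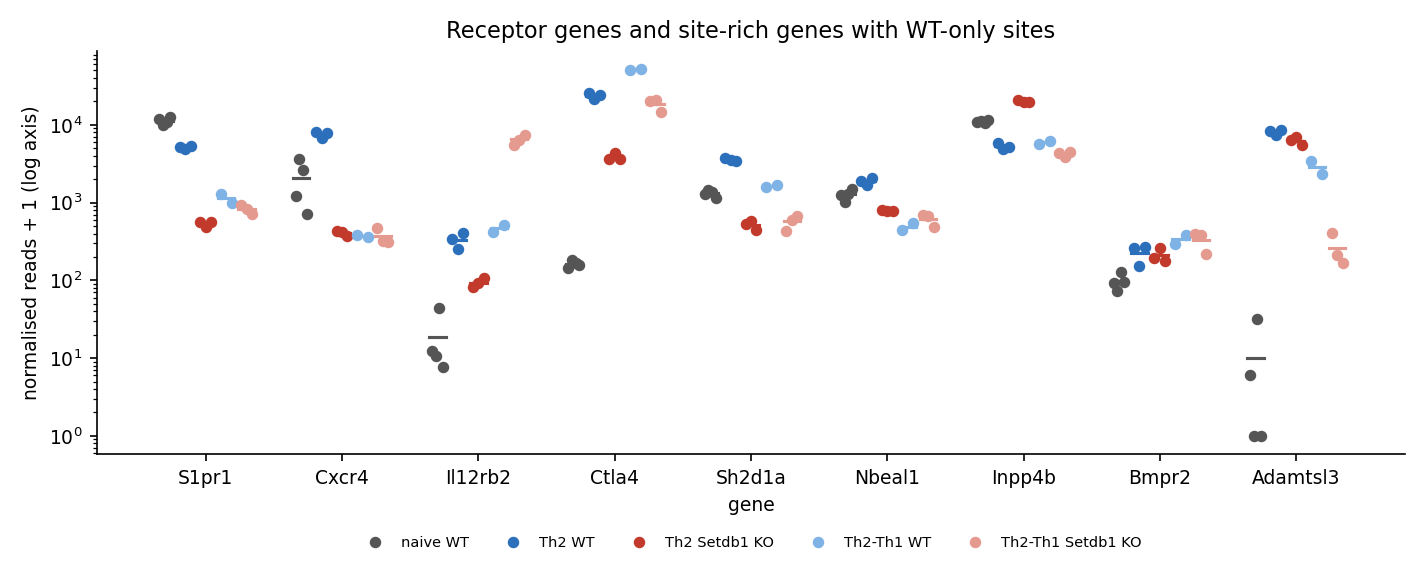
Normalised reads plus 1 (log axis) of receptor genes and of genes with many WT-only sites. Points are libraries and bars are means. S1pr1, Cxcr4, Ctla4 and Sh2d1a were lower in all 3 Th2 KO than in all 3 Th2 WT libraries, Inpp4b was higher, Bmpr2 overlapped, and Il12rb2 was lower in Th2 KO and higher in Th2-Th1 KO.

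Th1 genes with WT-only sites were higher more often than lower. Of 26 measured genes of the Th1 programme, 12 had a WT-only site, 21 sites in all. Of the 12, 3 were lower and 6 higher, against 2 and 6 of the 14 without. Beside these counts, 25.1% of all tested genes with a position were lower and 30.03% higher. The share lower among the 12 lay close to that background. The share higher lay above it both with and without a WT-only site. Il12rb2, the signalling chain of the IL-12 receptor, had 5 WT-only sites of 12, the strongest at chr6:67383132-67383468, 6839 bp from the gene, with a score of 18.3 and H3K4me1 in Th2 and not naive WT. In Th2 cells it was at 341, 249 and 404 in WT and at 81.5, 90.9 and 105.9 in KO (log2 difference −1.81, SE 0.43, adjusted p 0.0013). After the move to IL-12 the Th2-Th1 libraries stood at 415 and 518 in WT and at 5560, 6427 and 7488 in KO, so that KO was above WT (log2 difference 3.79, adjusted p 5.6e-06).

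Tbx21, the factor that directs Th1 identity, had 1 WT site, a WT-only site inside the gene with a score of 5.68, and was at 2.02, 0 and 0 in Th2 WT and at 17.9, 13.4 and 8.49 in Th2 KO (log2 difference 3.25, SE 0.73, adjusted p 0.00092). Ifng, the main Th1 cytokine, had 1 of 7 and was at 4.03, 7.42 and 9.98 against 114, 74.3 and 59.5 (log2 difference 3.38, SE 0.69, adjusted p 0.00035). Eomes, a related factor, had 1 of 3 and was at 0, 0 and 4.99 against 153, 86.9 and 83.9 (adjusted p 4.1e-07). In these genes the Th2 KO libraries lay above all Th2 WT libraries, while the WT-only sites near them carried no H3K27ac.

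**Figure D5:**
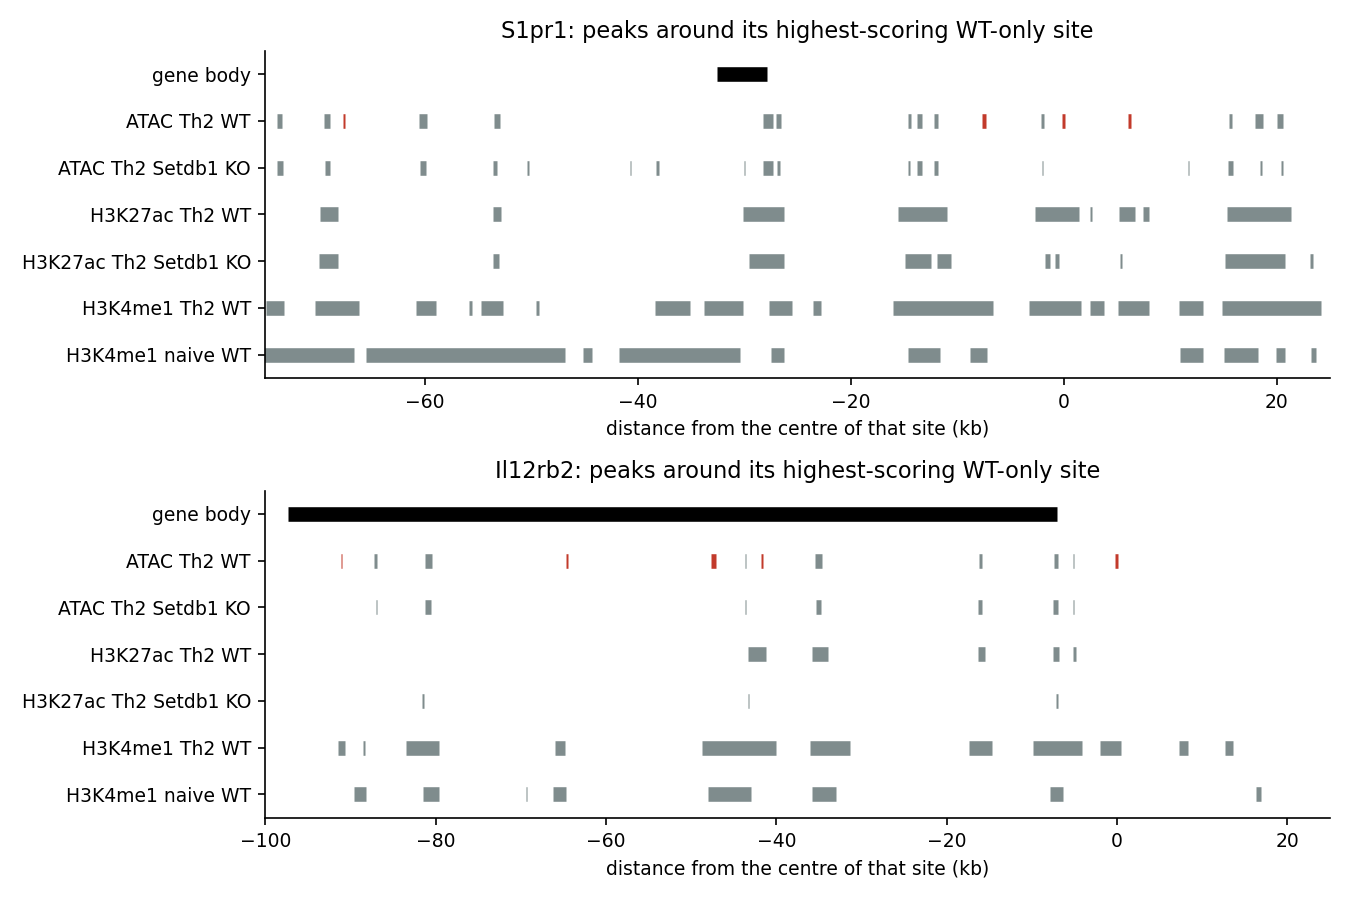
Peaks around S1pr1 (top) and Il12rb2 (bottom) by distance in kb from the centre of the highest-scoring WT-only site of each gene. Red boxes are WT-only sites, grey boxes are shared WT sites, KO ATAC-seq peaks and histone mark peaks, and the black bar is the gene body. The S1pr1 site lies under an H3K27ac peak in Th2 WT and in a gap of the KO list, and neither site at 0 overlaps H3K4me1 of naive WT.

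Transcription factor genes were split. The 42 measured genes of the list were AP-1, BATF, IRF, NFAT, RUNX, ETS and GATA factors and others such as Rora, Foxp1, Ikzf1 and Tcf7. Of these, 26 had a WT-only site, 78 in all, with 8 lower and 8 higher, against 7 lower and 8 higher of the 16 without. Both shares with a site were 30.8%, near the 25.1% lower and 30.03% higher of all tested genes. Jun, a subunit of AP-1, had 3 of 7 and was at 2395, 2490 and 2869 in Th2 WT and at 555, 637 and 995 in Th2 KO (log2 difference −1.87, SE 0.27, adjusted p 1.0e-05). Atf3, which pairs with Jun, had 2 of 4 and fell by 2.14 (adjusted p 0.0076). Rora, a nuclear receptor gene, had 2 of 15 and was at 673, 824 and 1023 against 161, 150 and 113 (log2 difference −2.56, SE 0.24, adjusted p 3.3e-08). Foxp1, which keeps T cells quiescent, had 2 of 33 and rose by 2.91 (adjusted p 1.0e-12).

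Genes of glycolysis and the hypoxia response were almost all lower, whether or not they held a WT-only site. Of 32 measured, 13 had one, 22 sites in all. Of the 13, 12 (92.3%) were lower and none higher, against 17 (89.5%) lower and none higher of the 19 without. For comparison, 25.1% of all tested genes were lower and 30.03% higher. Adm, the vasodilator adrenomedullin, had 1 of 4, at chr7:110658191-110658798, with H3K27ac in WT and not in KO. It was at 1665, 1518 and 2023 in Th2 WT and at 4.37, 4.48 and 3.00 in Th2 KO (log2 difference −8.46, SE 0.64, adjusted p 1.4e-09). Ndrg1, a gene induced by hypoxia, had 1 of 2 and fell by 4.51 (adjusted p 8.6e-13), and Vegfa, the vascular growth factor, had 1 of 3 and fell by 4.16 (adjusted p 1.5e-09). These lists and the genes named from them were taken up with earlier results of the same data known.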

How the data were processed

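The authors deposited 1 RNA table and 1 peak list per group. Per the submitters' processing notes the tools were cutadapt 1.3, BWA 0.7.10, TopHat2 2.0.5, MACS2 2.1.0 and DESeq, with the mm10 genome. Values of the RNA table are a signal made by the authors as reads per gene over a size factor per library; whole reads came back from 100% of values within 0.01. The first of 2 identical copies of 39179 genes was used. The ATAC-seq, H3K27ac and H3K4me1 lists were deposited with a score, a fold ratio over background and −log10 p and q values, and are broad peaks with no summit, so the site centre stood in for a planned summit. The scale of the deposited H3K9me3 score, the gene annotation and the ATAC-seq depth were not stated in any source used here.

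Overlaps, Wilson 95% intervals and gene assignment were computed with pandas 2.3.3 and scipy 1.17.1. RefSeq (GRCm38.p6) gave positions for 93.6% of the 17254 tested genes. limma 3.58.1 (trend, 12 residual degrees of freedom) was run on log2(value + 1) with Benjamini-Hochberg adjustment, and checked on simulated data. edgeR 4.0.16 and DESeq2 1.42.0 on recovered reads, other scalings, pseudocounts, filters, assignments and left-out libraries were alternatives. Named genes are 8 Th2 and Th1 genes, the targeted gene, genes with the most or the largest share of WT-only sites, the largest changes at 3 or more sites, up to 4 per gene list, and promoter genes picked after their values were seen. The largest changes were picked among genes with an adjusted p under 0.05 and no overlap between the Th2 groups. Members and lists were chosen with earlier results of these data known. Intervals cover counting error only. The level of one further marker list is not reported here.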

Additional observations from a re-analysis of the deposited data

Results flagged for a closer look

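For genes named in the text, an outlier rule set 1 library apart from the other 3 in 10 of 50 groups of 4 libraries. All 10 were naive WT. The rule's chance rate of about 1 in 20 does not apply where the other 3 libraries stood at 0. There any value above 0 is set apart, however low. This was so at least for Il5 and Ifng, at 0 in naive WT replicates other than 3. The 10 are therefore a description and are not compared with chance. Replicate 3 was the high one for Il5 (3.62 normalised reads), Ifng (1.81), Tmem45a (3.62), Ascl2 (1.81), Ermn (10.9), Emilin2 (19.9) and Atf3 (10.9). Replicate 1 was the high one for Gpr141 (3.74) and Slc2a3 (864), and replicate 4 for Foxp1 (8011). Replicates 1 and 3 are the libraries that detected more genes at equal depth.

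For 4 genes with WT-only sites every KO library lay on opposite sides of the WT libraries in Th2 and in Th2-Th1 cells. The difference between the Th2 and the Th2-Th1 contrast was not tested. By limma, the log2 difference in Th2-Th1 cells was −0.50 for Inpp4b (adjusted p 0.00068) and 0.97 for Rora (adjusted p 0.0091). It was 3.79 for Il12rb2 (adjusted p 5.6e-06). For Atf3 it was 0.27, with an SE of 0.71 and an adjusted p of 0.83, so no call was made in Th2-Th1 cells.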

How the results depend on the processing

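The number of WT-only sites was 1587 at a minimum score of 10, 18213 where a shared site had to be covered to 50%, and 1630 with the WT list cut to the number of KO sites, an alternative added after seeing the data; it was 10332 with KO peaks within 500 bp counted as shared. At a minimum score of 10, the same 500 bp, the cut list, marks over the site centre, and mark peaks above the median of their list, H3K27ac covered 32.1%, 22.9%, 32.1%, 21.7% and 12.8% in WT, 14.6%, 14.0%, 14.7%, 11.9% and 9.88% in KO, and naive H3K4me1 15.8%, 19.6%, 15.8%, 19.2% and 11.8%. At a minimum score of 10, the cut list, the centre and the median, Th2 WT H3K4me1 was 88.0%, 88.0%, 66.6% and 36.3%, that of experiment 2 was 85.9%, 86.0%, 63.5% and 51.6% in WT and 68.6%, 68.7%, 50.8% and 43.0% in KO, and Th2 WT H3K9me3 1.26%, 1.29%, 0.71% and 0.64%. H3K27ac stayed higher in WT than in KO in all of them.

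Genes with a WT-only site of a score of at least 10 were lower in 306 of 987 (31.0%) and higher in 280. Over all tested genes with a position, 25.1% were lower and 30.03% higher. Leaving out each Th2 library gave 1102 to 1168 lower and 1299 to 1388 higher, against 1231 and 1451 in the main fit. Replicate numbers did not pair the libraries (correlations 0.017, −0.002 and 0.019), and the fit with the replicate block gave 1241 lower and 1466 higher. The shares over all tested genes in the left-out and block fits are not given here, so these counts show only how the calls moved. TMM scaling moved the median of all genes by 0.11 on the log2 scale. Of 55 named genes, 48 kept their side of the threshold and direction under all 14 alternatives of the RNA fit. Leaving out 1 library at a time gave log2 differences of −0.035 to 0.16 for Gata3, −0.040 to 0.61 for Rad51b and −0.32 to 0.074 for Bmpr2, of which no call was made, and Bmpr2 became 0.070 with TMM and 0.052 with edgeR. Il5 and Il10 lost the call without KO replicate 3, Sox5 gained it in 4 alternatives and Adamtsl3 in 1; the cause was not tested. The depth of the ATAC-seq libraries, which is unknown, limits every statement on a missing site.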
